A study of Homo sapiens with 4 samples.

Results

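The genes described here encode the machinery that carries cells from G1 into S phase: the D-type cyclins CCND1, CCND2 and CCND3, cyclin E1 (CCNE1), the cyclin-dependent kinases CDK2, CDK4 and CDK6, the INK4 inhibitors CDKN2A and CDKN2B, and the CIP/KIP inhibitor CDKN1B. They were chosen by name for their role, with earlier results of these data known, and are 10 of the 58825 gene rows in the count tables. D-type cyclins are made in response to growth factor signals and bind CDK4 or CDK6, and the resulting kinases begin to phosphorylate the retinoblastoma protein RB1. Cyclin E with CDK2 continues that phosphorylation, which frees E2F transcription factors to switch on genes for DNA replication. INK4 proteins bind CDK4 and CDK6 and keep them from the D-type cyclins, whereas CIP/KIP proteins bind assembled cyclin-CDK complexes and inhibit CDK2 in particular.

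The cells were LoVo, an established human colon adenocarcinoma line whose MET receptor, the receptor for hepatocyte growth factor, stays uncleaved and phosphorylated without its ligand. The comparison asks how the transcripts of these cells differed when MET was disrupted. The 2 MET+ libraries came from cells of WT genotype that had received a GFP control, and the 2 MET-KO libraries from cells in which MET had been targeted with CRISPR/Cas9, selected with puromycin, picked as single clones and checked for MET protein. All cells were grown in DMEM with 10% fetal bovine serum, and neither the time of harvest nor whether both MET-KO libraries came from 1 clone was given in the sources used here. Each pair was labelled as biological replicates. The p-values below set the group difference against the variation between such replicates, with the estimate for each gene drawn toward that of other genes. Differences between clones and an effect of MET cannot be told apart.

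The libraries held 8429142 to 10286552 counts each, from a 3' end protocol that counts roughly 1 fragment per transcript regardless of its length. MET itself had 2794 and 3272 counts in MET+ and 861 and 965 in MET-KO, a log2 fold change of -1.96 (SE 0.09, adjusted p = 1.49e-18), and a 3' count cannot show whether the remaining transcripts encode intact protein. The groups also stood apart in ways the labels do not describe. Genes of chromosome Y together held 45 to 57 counts in the MET+ libraries and 7200 to 7330 in the MET-KO libraries. The summed level of 13 colon epithelial markers was 9731 to 9766 counts-per-million (CPM) in MET+ and 7337 to 8321 CPM in MET-KO. Of the 12 that were tested, 2 rose (CDX2 and KRT20) and 9 fell. Of all genes tested, 27.2% were called higher and 26.9% lower. CEACAM5, CDH17 and GPA33 were at 0 counts in both MET-KO libraries, KRT20 was at 0 in MET+, and CDX1 was at 0 in all 4. Summed markers of fibroblasts, blood cells and endothelium reached at most 4.33, 1.69 and 0.924 CPM, with 2 of 7, 3 of 6 and 2 of 4 of them at 0 in every library. The part of these differences in the results below was not tested, and for every fold change below a different origin of the cells of the 2 groups and the loss of MET cannot be told apart.

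All 10 genes passed the filter on low counts, and the lowest count of any of them in any library was 128. CDKN2A, CDK6 and CCND3 were higher in MET-KO, CCND2 and CDK4 were lower, and the other 5 did not pass the test. That is 3 of 10 higher, where 27.2% of the 13801 genes tested were called higher, and 2 of 10 lower, where 26.9% were called lower, and 5 of 10 in either direction, where 54.1% were called. The share of the genes that changed was thus near that of the whole transcriptome. At a log2 fold change of at least 1 in size, 2 were higher (14.5% of all genes tested) and 1 was lower (9.81%). The 2 groups did not overlap for 8 of the 10 genes, against 75.6% of all genes tested, which is likewise close to the background. The median log2 fold change was -0.03 over the 10 genes and 0.01 over all genes tested. Calls were made at an adjusted p of 0.05 in edgeR's quasi-likelihood test, adjusted by the Benjamini-Hochberg method over all genes tested. Levels are CPM after scaling by trimmed mean of M values, given as mean ± SD with n = 2, fold changes are MET-KO over MET+, and intervals are 95% and not adjusted for multiple tests. In bulk RNA, a change in the share of cells that express a gene and a change in RNA per cell cannot be told apart.

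**Figure D1:**
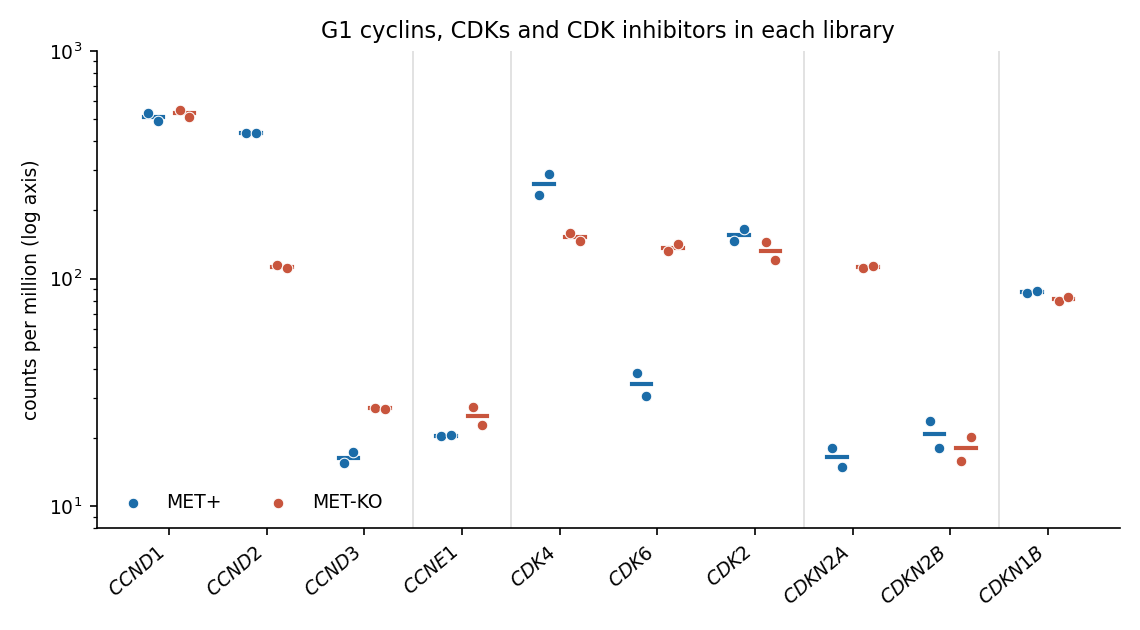
Levels of the 10 genes in each of the 4 libraries, as CPM on a log axis, with 1 point per library and a short horizontal line at each group mean. CCND2 lay at 434 and 437 CPM in MET+ and at 112 and 114 CPM in MET-KO, CDK6 and CDKN2A moved the other way, and the points of CCND1 and CDKN2B intermingled.

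Among the D-type cyclins, CCND2 fell, CCND3 rose and CCND1 did not pass the test. CCND1 (ENSG00000110092, GRCh38 chr11:69641087-69654474, plus strand), a cyclin D induced by growth factor signals in many epithelial cells, was read at 531 and 492 CPM in the MET+ libraries and at 549 and 513 CPM in the MET-KO libraries. The groups overlapped, and the log2 fold change was 0.05 (SE 0.09, 95% interval -0.13 to 0.24, adjusted p = 0.643). LTO1, which shares 497 exonic bases with it on the other strand, had 212 to 270 counts, against 4397 to 5597 for CCND1. The part of this overlap in the level of CCND1 was not tested.

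CCND2 (ENSG00000118971, chr12:4273772-4305350, plus strand), a second D-type cyclin, was read at 437 and 434 CPM in MET+ and at 114 and 112 CPM in MET-KO. Both MET-KO libraries lay far below both MET+ libraries, from 435 ± 2.01 to 113 ± 1.92 CPM. The log2 fold change was -1.95 (SE 0.09, 95% interval -2.14 to -1.76, adjusted p = 1.09e-18), which is 3.86-fold lower in MET-KO. AC008012.1, which shares 989 exonic bases with CCND2 on the same strand, had 0 counts in every library. The part of this overlap in the level of CCND2 was not tested. CCND3 (ENSG00000112576, chr6:41934933-42050357, minus strand), the third member of the family, was the least abundant of them on the CPM scale, at 15.5 and 17.2 CPM in MET+ and 27.0 and 26.9 CPM in MET-KO. The groups did not overlap, and the log2 fold change was 0.72 (SE 0.15, 95% interval 0.40 to 1.03, adjusted p = 0.000176), or 1.64-fold higher.

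The make-up of the D-type cyclin transcripts therefore differed between the groups. CCND1 supplied 54.0% and 52.2% of the 3 genes' counts in the MET+ libraries (exact binomial 95% intervals 52.9 to 55.1 and 51.1 to 53.2) and 79.5% and 78.8% in the MET-KO libraries (78.6 to 80.5 and 77.8 to 79.7). CCND2 supplied 45.2% ± 1.14 in MET+ and 16.8% ± 0.393 in MET-KO, and CCND3 1.70% ± 0.181 and 4.02% ± 0.154 (SD, n = 2). CCND1 and CCND2 were thus near parity in MET+ cells, while CCND1 made up most of the pool in MET-KO cells although its own level did not pass the test. The summed level of the 3 genes went from 983 and 943 CPM to 690 and 652 CPM, so that the MET-KO mean of 671 ± 27.1 CPM was 69.7% of the MET+ mean of 963 ± 28.7 CPM. An exact permutation test of 2 against 2 libraries cannot go below a two-sided p of 0.333, so the shares and sums are given without a test.

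Cyclin E1 (CCNE1, ENSG00000105173, chr19:29811898-29824308, plus strand), the partner of CDK2 in late G1, was read at 20.4 and 20.5 CPM in MET+ and at 27.3 and 22.7 CPM in MET-KO. The groups did not overlap, but the MET-KO libraries differed from each other by more than the nearer one differed from MET+. The log2 fold change of 0.29 (SE 0.15, 95% interval -0.02 to 0.59) did not pass the test (adjusted p = 0.11), although it did when libraries were scaled by their total counts alone (0.39, adjusted p = 0.0404).

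**Figure D2:**
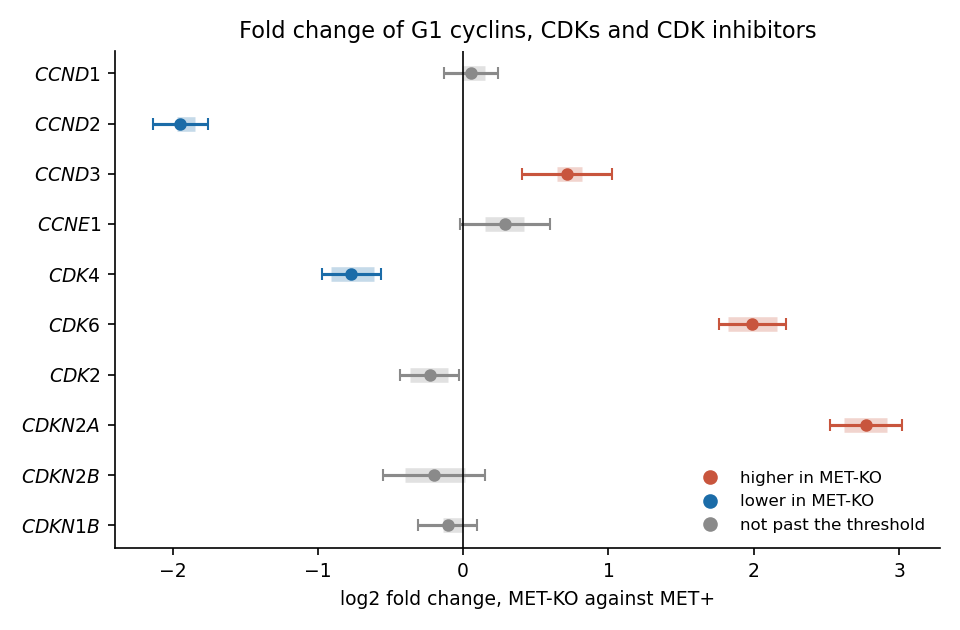
Log2 fold change of each of the 10 genes, MET-KO over MET+, as points with 95% intervals from edgeR as whiskers and the range over 11 alternative settings as pale bars. The fold changes run from -1.95 for CCND2 to 2.77 for CDKN2A, and the intervals of CCND1, CCNE1, CDKN2B and CDKN1B include 0.

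The 2 kinases that pair with D-type cyclins moved in opposite directions. CDK4 (ENSG00000135446, chr12:57747727-57756013, minus strand) was read at 232 and 287 CPM in MET+ and at 159 and 146 CPM in MET-KO. The MET+ libraries were spread more widely than the MET-KO libraries (260 ± 39.1 against 153 ± 8.92 CPM), yet the groups did not overlap. The log2 fold change was -0.77 (SE 0.10, 95% interval -0.97 to -0.57, adjusted p = 5.56e-08), which is 1.70-fold lower. The exons of CDK4 share 1369 bases with TSPAN31 on the other strand. TSPAN31 had 128, 166, 143 and 146 counts in the 4 libraries, against 1588 to 2799 for CDK4. The strand setting of the counting is not given, so these counts cannot show how many reads fell in the shared bases. The part of this overlap in the level of CDK4 was not tested.

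CDK6 (ENSG00000105810, chr7:92604921-92836594, minus strand), the other kinase of D-type cyclins, was read at 38.4 and 30.6 CPM in MET+ and at 132 and 141 CPM in MET-KO. Both MET-KO libraries exceeded both MET+ libraries, in each case by more than the spread within a group, from 34.5 ± 5.54 to 137 ± 6.70 CPM. The log2 fold change was 1.99 (SE 0.11, 95% interval 1.76 to 2.22, adjusted p = 1.43e-16), or 3.97-fold higher. An antisense gene that shares 81 exonic bases with CDK6, AC002454.1, held 0 counts in each MET+ library, while MET-KO had 29 and 45, against 1344 and 1534 for CDK6 itself. The part of this overlap in the level of CDK6 was not tested.

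CDK6 transcripts made up 14.2% and 9.62% of the counts of CDK4 and CDK6 together in the MET+ libraries (exact binomial 95% intervals 12.8 to 15.7 and 8.61 to 10.7) and 45.3% and 49.1% in the MET-KO libraries (43.5 to 47.2 and 47.4 to 50.9). CDK4 was thus the main transcript of the pair in MET+ cells, and the 2 were nearly equal in MET-KO cells. Their sum was 270 and 318 CPM in MET+ and 291 and 287 CPM in MET-KO, so that the MET-KO mean of 289 ± 2.21 CPM was 98.3% of the MET+ mean of 294 ± 33.5 CPM. The summed levels overlapped between the groups, in contrast to each of the 2 genes taken alone.

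CDK2 (ENSG00000123374, chr12:55966769-55972784, plus strand), the kinase of cyclin E, was read at 146 and 165 CPM in MET+ and at 144 and 121 CPM in MET-KO. The groups were separated only narrowly, with the lowest MET+ and the highest MET-KO library nearly level. The log2 fold change was -0.23 (SE 0.10, 95% interval -0.43 to -0.03) and just missed the threshold (adjusted p = 0.0521). It passed without MET+ replicate 1 (-0.31, adjusted p = 0.0320) or without MET-KO replicate 1 (-0.37, adjusted p = 0.00389), so the call for CDK2 turned on a single library.

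**Figure D3:**
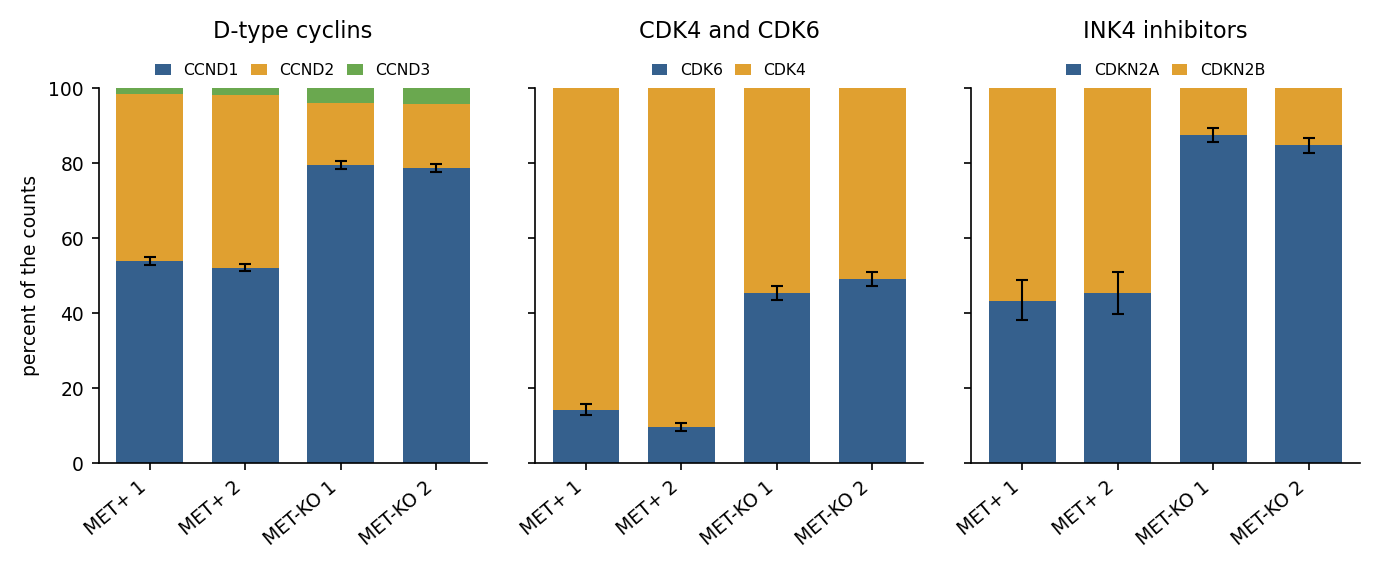
Composition of the D-type cyclin, CDK4 and CDK6, and INK4 transcript pools in each library, as percent of the counts of each pool. The bars on CCND1, CDK6 and CDKN2A are exact binomial 95% intervals of counting error, and CCND1 is at 52.2 to 54.0% in MET+ and 78.8 to 79.5% in MET-KO, CDK6 at 9.62 to 14.2% and 45.3 to 49.1%, and CDKN2A at 43.4 to 45.3% and 84.8 to 87.6%.

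The start regions of both kinases were read from RefSeq (GRCh38.p14) as windows of 250 bases before to 50 bases after an annotated start. They are shown because CDK4 and CDK6 moved in opposite directions and CDK6 has 2 annotated starts that a 3' count cannot separate. The windows were searched on both strands for letters known from E2F sites (TTGGCGC, and likewise TTCCCGC, and likewise TTGCCGC, and likewise TTCGCGC), from AP-1 sites (TGACTCA), from TEAD sites (GGAATG), from the cyclic AMP response element, CRE (TGACGT), and from the GC box (GGGCGG), and matches are in capitals. The CDK4 window (chr12:57752261-57752560, minus strand) held 3 GC boxes. Of the CDK6 windows, the upstream one (chr7:92836524-92836823, minus strand) held 3 GC boxes, and the downstream one (chr7:92833910-92834209, minus strand) held 1 CRE.
CDK4: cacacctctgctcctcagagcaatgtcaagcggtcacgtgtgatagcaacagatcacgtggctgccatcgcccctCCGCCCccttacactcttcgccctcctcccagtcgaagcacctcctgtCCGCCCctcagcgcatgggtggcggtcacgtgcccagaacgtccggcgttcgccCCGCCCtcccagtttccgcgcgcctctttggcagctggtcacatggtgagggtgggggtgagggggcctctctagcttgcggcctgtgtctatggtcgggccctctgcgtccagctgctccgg
CDK6, upstream start: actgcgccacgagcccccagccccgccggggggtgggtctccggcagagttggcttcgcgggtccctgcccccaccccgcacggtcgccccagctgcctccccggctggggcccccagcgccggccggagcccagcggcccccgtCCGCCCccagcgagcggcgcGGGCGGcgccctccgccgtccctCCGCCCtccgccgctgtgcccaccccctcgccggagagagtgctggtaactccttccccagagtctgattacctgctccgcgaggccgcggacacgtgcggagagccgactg
CDK6, downstream start: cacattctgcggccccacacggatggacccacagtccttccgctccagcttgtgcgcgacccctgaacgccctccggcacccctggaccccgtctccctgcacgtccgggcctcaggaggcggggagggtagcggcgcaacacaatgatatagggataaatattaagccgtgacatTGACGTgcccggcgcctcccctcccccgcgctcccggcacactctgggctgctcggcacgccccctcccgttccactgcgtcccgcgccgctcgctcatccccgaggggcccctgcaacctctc

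Of the CDK inhibitors, CDKN2A moved furthest and its neighbour CDKN2B did not pass the test. CDKN2A (ENSG00000147889, chr9:21967753-21995301, minus strand) encodes 2 unrelated proteins from alternative first exons, the CDK4 and CDK6 inhibitor p16INK4a and p14ARF, which stabilises p53, and because both share their last exons the 3' counts do not separate them. It was read at 18.1 and 14.9 CPM in MET+ and at 111 and 113 CPM in MET-KO. The MET-KO libraries agreed closely and lay far above MET+, from 16.5 ± 2.29 to 112 ± 1.26 CPM. The log2 fold change was 2.77 (SE 0.12, 95% interval 2.52 to 3.02, adjusted p = 1.32e-19), or 6.83-fold higher, above 95.6% of all genes tested.

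CDKN2B (ENSG00000147883, chr9:22002903-22009363, minus strand) encodes p15INK4b, an INK4 inhibitor known to respond to TGF-β. It was read at 23.7 and 18.0 CPM in MET+ and at 15.8 and 20.3 CPM in MET-KO. The groups overlapped, and the log2 fold change was -0.20 (SE 0.17, 95% interval -0.55 to 0.15, adjusted p = 0.340). Without MET+ replicate 1 the value was 0.0097, so its sign rested on 1 library. CDKN2A supplied 43.4% and 45.3% of the counts of the INK4 pair in MET+ (exact binomial 95% intervals 38.1 to 48.8 and 39.8 to 50.9) and 87.6% and 84.8% in MET-KO (85.7 to 89.3 and 82.9 to 86.6), a share examined after the values of both genes were seen. CDKN2A and CDKN2B were therefore at similar levels in MET+ cells, and CDKN2A was the main transcript of the pair in MET-KO cells.

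The start regions of the INK4 locus are shown because CDKN2A and CDKN2B lie side by side and differed in their change, and because CDKN2A has separate starts for its 2 kinds of transcript. The upstream CDKN2A window (chr9:21995275-21995574, minus strand) held none of the 5 motifs, and the downstream one (chr9:21974808-21975107, minus strand) held 2 GC boxes. The CDKN2B window (chr9:22009256-22009555, minus strand) held 2 GC boxes and 1 TEAD match.
CDKN2A, upstream start: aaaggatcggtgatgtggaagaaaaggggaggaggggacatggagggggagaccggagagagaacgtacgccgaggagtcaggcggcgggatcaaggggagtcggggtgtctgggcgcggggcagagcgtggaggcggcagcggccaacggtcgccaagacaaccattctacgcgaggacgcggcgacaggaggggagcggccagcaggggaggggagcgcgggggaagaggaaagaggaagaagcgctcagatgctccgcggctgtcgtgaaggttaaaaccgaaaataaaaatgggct
CDKN2A, downstream start: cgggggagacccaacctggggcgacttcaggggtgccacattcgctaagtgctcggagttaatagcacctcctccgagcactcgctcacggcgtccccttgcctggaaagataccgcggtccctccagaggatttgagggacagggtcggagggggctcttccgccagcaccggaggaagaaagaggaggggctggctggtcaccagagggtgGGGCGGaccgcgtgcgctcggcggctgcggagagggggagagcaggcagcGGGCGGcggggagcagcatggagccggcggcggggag
CDKN2B: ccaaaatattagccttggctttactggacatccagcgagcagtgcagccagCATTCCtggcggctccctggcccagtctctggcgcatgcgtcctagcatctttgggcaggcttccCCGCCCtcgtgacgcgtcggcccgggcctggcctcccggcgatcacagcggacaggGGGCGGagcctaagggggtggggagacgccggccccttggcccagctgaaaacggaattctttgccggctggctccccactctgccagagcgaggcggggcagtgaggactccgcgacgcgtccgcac

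Windows were found for 7 of the 10 genes, 11 windows in all, and not for CCND1, CCND2 and CDK2. A GC box was present in 8 of the 11, against 45.0% of all 35116 promoter windows of that length. TEAD letters were in 2 of the 11 (14.0% of all promoters) and CRE letters in 1 (7.98%). The E2F and AP-1 letters were in none (13.0% and 4.95% of all promoters), which says only that these letters were not in these windows. The windows held 60.3 to 81.0% G and C, where the median over all promoters was 58.7%.

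CDKN1B (ENSG00000111276, chr12:12715058-12722371, plus strand) encodes p27Kip1, the CIP/KIP inhibitor that restrains cyclin E with CDK2 in quiescent cells. It was read at 86.6 and 88.1 CPM in MET+ and at 79.3 and 83.1 CPM in MET-KO. The MET-KO libraries were slightly lower and the groups did not overlap, but the log2 fold change of -0.11 (SE 0.10, 95% interval -0.31 to 0.10) did not pass the test (adjusted p = 0.388). The other CDK inhibitors were examined beside it. CDKN1A, which encodes the p53 target p21, was read at 201 and 205 CPM in MET+ and at 658 and 663 CPM in MET-KO, a log2 fold change of 1.70 (SE 0.09, adjusted p = 3.24e-17). CDKN1C, which encodes p57Kip2, went from 28.3 and 27.1 CPM to 53.7 and 52.9 CPM (0.95, adjusted p = 3.98e-08). The INK4 genes CDKN2C (0.03, adjusted p = 0.927) and CDKN2D (0.18, adjusted p = 0.360) did not pass the test. Over these 4 genes 2 rose and none fell, where 27.2% of all genes tested were called higher and 26.9% lower, and the median log2 fold change was 0.56, against 0.01 over all genes tested.

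CDK2, CDK4, CCND2 and CDKN1B lie on chromosome 12 and CDK6 on chromosome 7, so each gene was set beside the tested genes around it. The median log2 fold change was -0.31 over 761 tested genes of chromosome 12, CCND2 left out, and 0.50 over 672 of chromosome 7, CDK6 left out. Within 5 Mb to each side, it was -0.57 around CCND2 (90 genes), -0.52 around CDK4 (119 genes), -0.50 around CDK2 (132 genes), -0.44 around CDKN1B (47 genes) and 0.50 around CDK6 (37 genes). All 5 neighbourhoods were thus displaced from the median of all genes in a direction that their chromosome shared.

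Against these neighbourhoods, CCND2 still stood 1.38 lower (difference of -1.38 on the log2 scale) and CDK6 stood 1.49 higher. Around CDK6, 19 of 37 genes were called higher and 3 lower, against 27.2% and 26.9% of all genes tested. CDK6 was at the 83.8th percentile of that neighbourhood. CDK4 lay only 0.25 below its neighbourhood (-0.25), in which 64 of 119 genes were called lower. CDK2 and CDKN1B lay 0.27 and 0.33 above theirs. On its own chromosome CCND2 was at the 5.26th percentile of log2 fold changes, CDK4 at the 26.5th and CDK6 at the 90.3rd. The part of the chromosome-wide displacements in the changes of single genes was not tested.

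**Figure D4:**
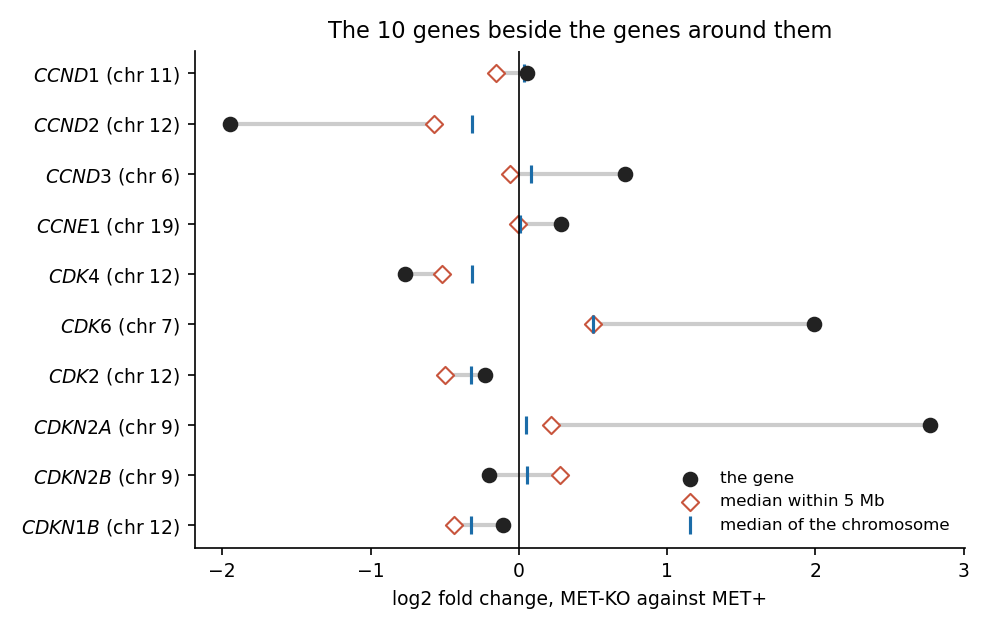
Log2 fold change of each of the 10 genes beside the median of the tested genes within 5 Mb and the median of its chromosome. The 4 genes on chromosome 12 have neighbourhood medians of -0.57 to -0.44 and CDK6 on chromosome 7 has 0.50, whereas CDKN2A stands 2.56 above a neighbourhood median of 0.22.

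The other 5 genes lay in neighbourhoods nearer to 0. The median was 0.22 around CDKN2A and 0.28 around CDKN2B (21 genes each), -0.15 around CCND1 (164 genes), -0.06 around CCND3 (84 genes) and -0.01 around CCNE1 (32 genes). CDKN2A stood 2.56 above its neighbourhood and was at the 96.7th percentile of chromosome 9. MTAP, an enzyme of methionine salvage on one side, had 658 and 741 counts in MET+ and 379 and 396 in MET-KO (log2 fold change -1.08, SE 0.11, adjusted p = 3.54e-10), and the antisense gene CDKN2B-AS1, which shares 341 exonic bases with CDKN2A, had 15, 9, 37 and 42 counts (1.47, SE 0.44, adjusted p = 0.00486). On one side of CCND2, the nearest tested genes were TIGAR, which rose (0.66, SE 0.18, adjusted p = 0.00275), and C12orf4 (-0.03, adjusted p = 0.891). On the other side they were PARP11 (-0.55, adjusted p = 0.108) and AC005831.1, which fell (-1.12, SE 0.40, adjusted p = 0.0179). On one side of CDK6, the nearest tested genes were AC002454.1 (8.10, with 0 counts in MET+) and SAMD9 (2.41, SE 0.18, adjusted p = 3.05e-13). Both rose by more than CDK6. On its other side they were FAM133B (0.27, adjusted p = 0.0839) and RBM48 (0.50, adjusted p = 0.0530). These neighbours of CCND2 and CDK6, and MTAP, were singled out after their values were seen.

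The 3 genes with the largest changes were compared with all tested genes whose log2 CPM averaged 3 or more for the likeness of their pattern over the 4 libraries, as the Euclidean distance between log2 CPM values centred on each gene's mean, over 9555 genes. Nearest to CCND2 were BHLHE40, ITGB4 and RASGRF2, at distances of 0.0675, 0.0698 and 0.0767. Nearest to CDK6 were SAMD12, APLP1 and C2CD3, at 0.0829, 0.103 and 0.122. Nearest to CDKN2A were MTURN, GNE and CRIM1, at 0.102, 0.118 and 0.133. With 2 libraries a group, such a pattern is little more than the size of the group difference.

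Transcripts of the RB family and of the E2F and DP factors gave no single direction. Of 13 genes of the RB family and the E2F and DP factors, 3 rose, 3 fell and 7 did not pass the test, with a median log2 fold change of 0.03. Each of these counts is 23.1% of the list, close to the 27.2% higher and 26.9% lower of all genes tested. RB1, the main substrate of CDK4 and CDK6, rose (0.54, adjusted p = 0.000545), as did its relative RBL2 (0.44, adjusted p = 0.0314) and E2F5 (0.79, adjusted p = 0.00657). RBL1 (-0.70, adjusted p = 0.00525) fell, as did the activator E2Fs E2F1 (-0.55, adjusted p = 0.00311) and E2F2 (-0.45, adjusted p = 0.00775). Those that did not pass were E2F3 (-0.13), E2F4 (0.03), E2F6 (0.32), E2F7 (0.38), E2F8 (-0.48) and the E2F partners TFDP1 (-0.24) and TFDP2 (0.17).

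Of 16 genes that activate G1 cyclin-CDKs or turn them over, 3 rose and 7 fell, with a median of -0.13, where 27.2% of all genes tested were called higher and 26.9% lower. CUL1, the scaffold of the SCF ubiquitin ligases, rose by 0.55 on the log2 scale, FBXW7, which targets cyclin E, by 0.32, and GSK3B, which phosphorylates cyclin D1 for export and degradation, by 0.31. The largest falls were of FBXO4 (-0.98), of the phosphatase CDC25A (-0.80), which activates CDK2, and of MNAT1 (-0.75), a subunit of the CDK-activating kinase.

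Genes that the same pathway switches on were examined last. Of 29 G1/S genes regulated by E2F, 4 rose, 9 fell and 16 did not pass the test, with a median of -0.13. That is 13.8% called higher against 27.2% of all genes tested, and 31.0% called lower against 26.9%. UHRF1 (0.83), UNG (0.61) and MCM2 (0.52) had the largest rises, and among the genes that fell were the licensing factors CDT1 (-0.92) and CDC6 (-0.70). CDT1 was read at 104 and 126 CPM in MET+ and at 64.3 and 57.4 CPM in MET-KO. The 26 G2/M genes are those that cells express as they prepare for and pass through mitosis. Of these, 18 fell (69.2%, against 26.9% of all genes tested) and 1 rose (3.85%, against 27.2%). The other 7 did not pass the test, and the median was -0.47. FOXM1, the transcription factor of that programme, was read at 125 and 131 CPM in MET+ and at 54.4 and 49.3 CPM in MET-KO (-1.30, adjusted p = 7.61e-13). FOXM1 lies on chromosome 12 within 5 Mb of CCND2. In that neighbourhood the median was -0.57 and 50 of 90 genes were called lower, against 26.9% of all genes tested. The part of that displacement in the fall of FOXM1 was not tested. MKI67, a marker of cycling cells, was read at 290.5 and 292 CPM in MET+ and at 154 and 174 CPM in MET-KO (-0.83, adjusted p = 3.09e-09). The 1 called higher, CENPF (0.25, adjusted p = 0.0424), had groups that overlapped. Whether the levels of the G1 genes and those of the G2/M genes were connected was not tested.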

How the data were processed

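RNA of 4 LoVo cultures was sequenced with the QuantSeq 3' mRNA-Seq kit (FWD). The authors deposited raw read counts per gene for each library. The submitters' processing notes name cutadapt 1.16, STAR 2.5.4a, featureCounts 1.6.2, DESeq2 1.18.1 and GRCh38. The strand setting of the counting and its annotation release are not given in the sources used here. Names and positions came from GENCODE 29, which held 58552 of the 58825 gene IDs. The 99 spike-in rows held no count and were left out.

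Groups followed the labels. Genes were filtered with filterByExpr, scaled by TMM (factors 0.949 to 1.06) and tested with edgeR 4.0.16 in R 4.3.3 (quasi-likelihood, condition as the only term, Benjamini-Hochberg over 13801 genes), after the code was tested on simulated data. The depth allows up to 0.292 to 0.356 CPM for a count of 0 (3 counts). Intervals on shares cover counting error only. Genes of each list were named as the 3 largest changes in each direction that were called and had a log2 CPM averaging 3 or more, with MKI67 added, and the CDK inhibitors and the RB family, E2F and DP factors were named in full. Some single-gene values are not reported here. The 10 genes and the lists were chosen with earlier results of these data known. Alternatives were DESeq2 1.42.0 (size factors, and its Wald test), library totals, the whole table unfiltered, a minimum of 10 counts throughout, thinning to equal depth, a replicate block, leaving out each library and a log2 fold change of at least 1.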

Additional observations from a re-analysis of the deposited data

How the results depend on the processing

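Over 369 values recomputed under alternatives, 332 were scored as unchanged, 32 moved, 3 newly passed the threshold and 2 changed sign. Unchanged meant the same direction and call for a fold change, and a shift within the spread for a neighbourhood difference. For counts of called genes it meant within a set ratio. The 2642 genes called higher by DESeq2's Wald test thus scored as unchanged against 3755 in the main fit. Shares with 1 library left out could only score as unchanged, because the mean of 2 values always lies within 1 SD of each. CDKN2A, CDK6, CCND3, CCND2 and CDK4 kept their direction and call in each of the 11 refits, although CCND3 and CDK4 did not reach a log2 fold change of 1 in size. Same-numbered libraries did not deviate together (correlation -0.02), so the numbers are taken as names only, and a replicate block left 7055 calls over all genes, 3544 higher and 3511 lower, with 3 of the 10 genes higher and 2 lower, but 0 G2/M genes higher. The 2 changes of sign were CCND1 (-0.0088 to 0.11 over left-out libraries) and CDKN2B (-0.40 to 0.0097). CCNE1 passed with library totals (0.39), which shifted the median of all genes by 0.10 and gave 2 G2/M genes higher, and CDK2 ran from -0.37 to -0.10 over left-out libraries.

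With DESeq2's Wald test 5399 genes were called, 1 and 0 of the RB and E2F list higher and lower, 1 activation gene higher and 0 G2/M genes higher. A log2 fold change of at least 1 left 2001 genes higher and 1354 lower, 1 of the 10 genes lower, and of the lists 1 other CDK inhibitor higher, 0 of the RB and E2F list either way, 0 activation genes either way, 0 G1/S genes higher and 1 lower, and 0 G2/M genes higher and 1 lower. Leaving out 1 library gave 0 to 4 RB and E2F genes lower (0 without MET+ replicate 2), 1 to 3 activation genes higher (1 without MET+ replicate 1) and 0 to 1 G2/M genes higher (0 without MET+ replicate 2 or MET-KO replicate 2).

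Differences from the 5 Mb neighbourhood ran over left-out libraries from 0.023 (without MET+ replicate 2) to 0.26 for CCND1, -1.51 to -1.30 for CCND2, 1.22 to 1.59 for CDK6 and 0.23 to 0.35 for CDKN1B. With 2 Mb windows CCND2 stood at -1.41, and with better-read genes alone CCND2 stood at -1.20 and CDKN1B at 0.38. Each shift was scored against the spread of the gene's own log2 CPM between replicates. For CCND2, at 437 and 434 CPM in MET+ and 114 and 112 CPM in MET-KO, that spread was narrow. Even the step from -1.38 in the main fit to -1.41 with 2 Mb windows therefore scored as moved. What else lay behind these moves was not tested. With 2 libraries a group, the spread of each group rests on 1 difference.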

Other observations

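The remaining cyclin and CDK genes were read after the values had been seen, and those named are among the larger changes. Of 20 other cyclin genes 17 were tested, of which 2 rose, 7 fell and 8 did not pass the test, with a median log2 fold change of -0.21, where 27.2% of all genes tested were called higher and 26.9% lower. CNTD2, a gene with a cyclin fold, was read at 0.604 and 0.718 CPM in MET+ and at 15.0 and 17.4 CPM in MET-KO (4.58, edgeR adjusted p = 7.81e-14), and CCNI2 at 12.4 and 18.4 CPM and then 4.80 and 5.43 CPM (-1.59, adjusted p = 4.56e-07). CCNYL1 fell from 49.5 and 45.4 CPM to 29.2 and 24.03 CPM (-0.83, adjusted p = 1.40e-06).

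Of 21 other CDK genes 16 were tested, of which 6 rose, 3 fell and 7 did not pass the test, with a median of 0.33, beside that same background. CDK14, which lies on chromosome 7 as CDK6 does, was read at 0.967 and 0.821 CPM in MET+ and at 9.51 and 9.58 CPM in MET-KO (3.41, adjusted p = 8.92e-10). CDK18 went from 2.90 and 4.003 CPM to 9.61 and 12.2 CPM (1.64, adjusted p = 3.82e-06). The 3 that fell were CDK16 (-0.61), CDK17 (-0.53) and CDK12 (-0.42), a kinase of RNA polymerase II.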
